A study of Mus musculus with 6 samples.

Results

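The genes described here are 10 genes of the T cell lineage, taken as a contrast set in germinal center (GC) B cells, where they are not thought to be in use. They are Cd3d, Cd3e and Cd3g, which encode the CD3 chains of the T cell receptor complex, Cd4, Cd8a and Cd8b1, which encode its coreceptors, Zap70, the kinase that docks on phosphorylated CD3 chains, and Bcl11b, Gata3 and Tcf7, transcription factor genes of T cell commitment. They are 10 of the 21864 protein-coding genes of the GRCm38 annotation and are listed by name, not by a peak threshold, although the list was drawn up with earlier results of these data known. For each gene a peak was placed at the promoter if it came within 5 kb of a transcription start site (TSS) of a protein-coding transcript, in the gene body if it overlapped the rest of the gene, and in the flank if it lay over 5 kb and up to 50 kb from the TSS outside the gene.

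H3K4me3, trimethylation of lysine 4 of histone H3, is found at the start sites of genes that are transcribed or poised, above all at promoters rich in CpG dinucleotides. H3K4me1, the monomethylated form, marks enhancers and the shoulders of active promoters. T cell receptor components are transcribed in T cells, whereas the factor Pax5 holds B cells to their own lineage and represses genes of other lineages.

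The libraries were Mint-ChIP profiles, a chromatin immunoprecipitation with barcoded, pooled samples for small cell numbers, of 50000 sorted cells each. Each came from spleens of mice of WT genotype, taken on day 8 once sheep red blood cells had been given as antigen, and 3 libraries were made with an antibody to H3K4me3 and 3 with an antibody to H3K4me1. All 6 libraries share the genotype and the immunization, so the marks, and no treatments, are what can be compared. The cell type label reads GC Centrocytes while the methods of the study speak of GC B cells, and the labels of these libraries give neither an age nor a Cre allele. In the mouse crosses of the study WT stands for animals with the Cγ1-cre allele alone, a Cre that acts in GC B cells, and its methods give young adult mice for immunization in general. Nothing says whether replicates came from separate mice, so the spread between them may be technical.

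The H3K4me3 libraries held 41936 to 46707 peaks covering 49.4 to 60.2 Mb, and the H3K4me1 libraries 11922 to 24136 peaks covering 3.53 to 7.91 Mb. H3K4me3 peaks were deposited as broad peaks and H3K4me1 peaks as narrow ones, with a lowest −log10 q-value of 1.02 to 1.14 and of 1.31 to 1.32, so the mark and the way of calling cannot be told apart. The median summit of an H3K4me1 peak held 6 fragments in each library, as recovered from its fold enrichment and p-value, which means that weak H3K4me1 was not detectable at this depth. Read totals are unknown. All 11 GC B cell markers, among them Pax5, Bcl6 and Fas, had a TSS covered by H3K4me3 in 3 of 3 libraries, so the defining markers of the label were present.

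The promoters of the T cell genes differ in CpG content, and 4 are shown because they differ both in CpG and in the H3K4me3 pattern given in the values that follow. They do not span the whole range, since Tcf7, which is not printed, held 37 CpG in the same stretch. Each run holds the 250 bases before the annotated RefSeq start, 5′ to 3′ on the strand of the gene, from RefSeq on GRCm38.p6, with every CpG in capitals. Gata3 lies at chr2:9878601-9878850 on the minus strand, Cd3e at chr9:45009612-45009861 on the minus strand, Zap70 at chr1:36761548-36761797 on the plus strand and Cd3d at chr9:44981536-44981785 on the plus strand.
Gata3: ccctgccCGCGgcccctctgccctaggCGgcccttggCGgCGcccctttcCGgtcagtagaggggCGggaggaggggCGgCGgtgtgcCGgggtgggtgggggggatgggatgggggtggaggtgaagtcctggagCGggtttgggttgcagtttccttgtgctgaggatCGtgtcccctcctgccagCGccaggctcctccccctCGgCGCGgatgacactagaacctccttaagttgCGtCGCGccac
Cd3e: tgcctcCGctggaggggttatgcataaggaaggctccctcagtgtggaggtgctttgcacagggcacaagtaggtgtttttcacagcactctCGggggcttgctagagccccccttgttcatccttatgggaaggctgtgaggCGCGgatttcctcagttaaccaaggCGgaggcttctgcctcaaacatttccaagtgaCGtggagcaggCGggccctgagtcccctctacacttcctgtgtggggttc
Zap70: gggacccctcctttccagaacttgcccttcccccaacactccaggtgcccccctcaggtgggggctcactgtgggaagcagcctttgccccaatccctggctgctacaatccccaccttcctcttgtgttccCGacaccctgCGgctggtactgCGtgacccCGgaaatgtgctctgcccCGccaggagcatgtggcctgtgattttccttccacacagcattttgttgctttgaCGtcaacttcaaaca
Cd3d: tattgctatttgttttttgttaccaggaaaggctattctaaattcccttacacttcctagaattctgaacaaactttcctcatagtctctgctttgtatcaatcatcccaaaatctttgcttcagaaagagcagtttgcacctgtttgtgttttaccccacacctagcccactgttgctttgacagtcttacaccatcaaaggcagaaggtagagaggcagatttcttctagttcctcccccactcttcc
The Gata3 run held 19 CpG, the Cd3e run 7, the Zap70 run 6 and the Cd3d run 0. Gata3 was the only one of the 10 genes with H3K4me3 over an annotated TSS of the basic annotation in 3 of 3 libraries.

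At the promoters H3K4me3 was found at 3 of the 10 T cell genes in 3 of 3 libraries, namely Gata3, Cd3d and Zap70, and H3K4me1 at none in any library. Among all protein-coding genes 56.2% met the same rule for H3K4me3. With a peak in at least 1 of 3 libraries, Cd3g, Cd8b1, Bcl11b and Tcf7 joined, which made 7 of 10 against 65.5% of all genes. For H3K4me1 the count was 0 of 10 against 6.17% of all genes in 3 of 3 libraries, and 0 of 10 against 35.7% in at least 1 library. Placed at the TSS itself, an H3K4me3 peak covered it in 3 of 3 libraries at 1 of 10 genes against 38.4% of all genes. Gata3 was that gene. Either mark, at the promoter or in the gene body in at least 1 library, was seen at 8 of 10 T cell genes against 72.7% of all genes, and Cd3e and Cd8a had neither.

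In these bulk libraries a mark carried by a few cells of another type and a mark on few B cell alleles cannot be told apart. Over the T cell list the summed promoter length under H3K4me3 was 3960 to 5502 bp per library, with 3 to 6 genes above 0, and Cd3e, Cd4 and Cd8a were at 0 in all 6 libraries. Of the other surface markers on the list, Cd3d was above 0 in 3 of 3 H3K4me3 libraries and Cd3g and Cd8b1 in 1 each. The 6 macrophage markers summed to 1750 to 3590 bp of H3K4me3, with 2 of 6, Itgam and Cd14, marked at the promoter in 3 of 3 libraries and 0 of 6 with a covered TSS in 3 of 3. Csf1r had 0, 830 and 668 bp, Adgre1 0, 0 and 474 bp and Mertk 402, 0 and 0 bp, and Lyz2 was at 0 in all libraries, so that 5 of 6 had a promoter peak in at least 1 library against 65.5% of all genes. The 11 GC B cell markers summed to 73983 to 82954 bp. Under H3K4me1 the T cell and macrophage lists both summed to 0 bp in each library and the GC B cell markers to 5431 to 10863 bp. The part of other cells in the peaks near T cell genes was not tested.

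**Figure D1:**
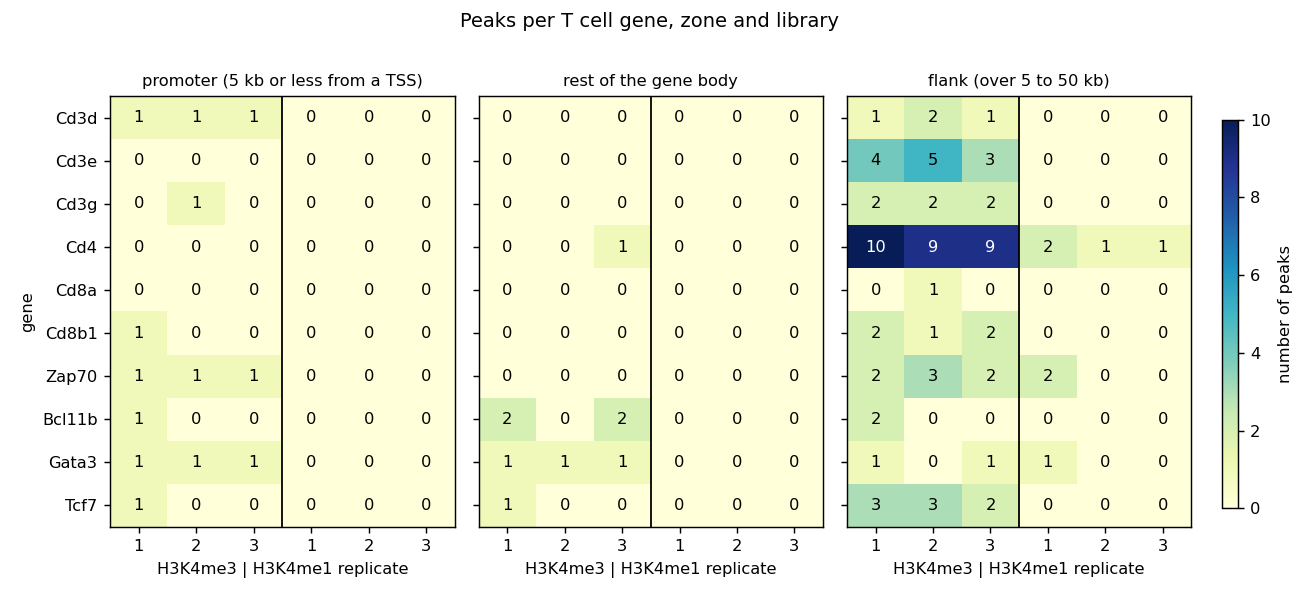
Number of peaks for each T cell gene (rows) in each library (columns, H3K4me3 replicates 1 to 3 left of the line and H3K4me1 replicates 1 to 3 right of it), with 1 panel for each zone, promoter, rest of the gene body and flank. All H3K4me1 cells of the first 2 panels read 0, and Cd4 has the fullest flank with 9 to 10 H3K4me3 peaks.

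The genes of the CD3 chains lie together on chromosome 9, where Cd3g and Cd3d are transcribed away from each other and Cd3e lies farther on. Cd3d (ENSMUSG00000032094, chr9:44981786-44987339, plus strand) had 486, 1481 and 839 bp of its 10001 bp promoter window under H3K4me3 in replicates 1, 2 and 3, and 0 bp under H3K4me1 in each library. Replicate 2 was the highest, and none of the H3K4me3 values overlapped those of H3K4me1. The mean of 935 ± 504 bp (SD, n = 3) was 9.35% of the window, above the value of 48.5% of all genes. It was 442 bp with a −log10 q-value of at least 5 or the 10000 best peaks of each library, 1635 bp with the coding transcripts of the comprehensive annotation and 0 bp at a TSS distance of 1 kb or 2.5 kb.

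The Cd3d peak did not sit at the TSS. It ran from 4515 to 5798 bp downstream of the TSS in replicate 1, from 3520 to 5680 bp in replicate 2 and from 4162 to 5621 bp in replicate 3, and the merged region, chr9:44985306-44987584, reached past the 3′ end of the gene, with its midpoint in an annotated UTR. Its fold enrichment, the linear ratio of fragment pileup to local background as the peak caller gave it, was 9.54, 5.08 and 7.41, above 97.3%, 62.6% and 92.6% of the peaks in the same library. Among the peaks that covered a TSS, the base used for Zap70 and Gata3, it was above 91.9%, 26.3% and 80.2%. In the comprehensive annotation a short coding transcript of Cd3d starts at 44985823, and a peak covered that start in replicate 2 alone.

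Cd3g (ENSMUSG00000002033, chr9:44969572-44980431, minus strand) had 0, 126 and 0 bp of promoter window under H3K4me3. The 126 bp were the edge of the Cd3d peak of replicate 2, 4875 bp from the Cd3g TSS, so Cd3g had no promoter peak of its own. Cd3e (ENSMUSG00000032093, chr9:44998740-45009627, minus strand), which encodes the epsilon chain of CD3, had 0 bp under either mark in all 6 libraries and no peak in its gene body.

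In the flanks of the 3 CD3 genes the peaks seen in 3 of 3 libraries, beside the Cd3d region itself, covered the starts of neighbours. These were Ube4a (chr9:44964503-44966530, fold enrichment 6.48 to 7.72), a ubiquitin ligase gene, and Mpzl3 (chr9:45054717-45056159, 6.08 to 7.24), which lay within reach of Cd3e only. Further peaks near Mpzl2 were seen in 1 library each, with a fold enrichment of 3.02 to 3.71. No H3K4me1 peak lay within 50 kb of a TSS of a CD3 gene.

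Of the coreceptor genes, none had H3K4me3 at the promoter in 3 of 3 libraries. Cd4 (ENSMUSG00000023274, chr6:124864692-124888221, minus strand) had 0 bp of promoter window under either mark in all 6 libraries. Its gene body held 1 intronic H3K4me3 peak of 246 bp in replicate 3, with a fold enrichment of 3.18, above 10.3% of the peaks of that library, and none in replicates 1 and 2.

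The flank of Cd4 was the most densely marked of the 10, with 10, 9 and 9 H3K4me3 peaks. Most of these lay nearest to the TSS of a neighbour, among them P3h3, Gpr162, Lag3, Ptms and Mlf2. A single region with Cd4 as its nearest coding gene was seen in 3 of 3 libraries, the intergenic chr6:124893959-124894847. It began 5738, 5742 and 6165 bp from the Cd4 TSS on the upstream side, and its fold enrichment was 5.75, 5.32 and 3.08 in replicates 1, 2 and 3. Replicate 3 was the weakest, in the lowest 6.39% of its library.

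Cd4 was also the only T cell gene with an H3K4me1 peak in the flank in 3 of 3 libraries, as 2, 1 and 1 peaks. These 4 peaks lay at 4 places, with summits of 4 and 5 fragments in replicate 1, 4 in replicate 2 and 8 in replicate 3, and no place was shared between libraries. The nearest coding TSS of each was that of P3h3, Lag3, Mlf2 or Ptms. The count of Cd4 as marked in 3 of 3 libraries thus rests on different peaks in a gene-dense stretch.

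Cd8b1 (ENSMUSG00000053044, chr6:71322788-71337494, plus strand) had 196, 0 and 0 bp of promoter window under H3K4me3. The 196 bp peak of replicate 1, with a fold enrichment of 3.70, lay in an intron of Smyd1, a muscle methyltransferase gene, whose TSS was the nearest. A wider region that was also intronic in Smyd1, chr6:71316052-71317120, was seen in 3 of 3 libraries at a fold enrichment of 2.97 to 5.75. Cd8a (ENSMUSG00000053977, chr6:71373427-71379173, plus strand) had 0 bp in all 6 libraries, and its flank held 1 peak of 189 bp in H3K4me3 replicate 2, in an intron of Rmnd5a.

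Zap70 (ENSMUSG00000026117, chr1:36761798-36782818, plus strand) had 585, 606 and 710 bp of promoter window under H3K4me3 and 0 bp under H3K4me1 in each library. The replicates were close to each other, with a mean of 634 ± 66.9 bp (SD, n = 3), 6.34% of the window, above 45.1% of all genes. With the coding transcripts of the comprehensive annotation as TSSs, a choice made after the peaks were seen, the mean was 1918 bp, and it was 0 bp at a TSS distance of 1 kb or 2.5 kb. As at Cd3d, the peak lay inside the gene and off the main TSS, from 4416 to 6734 bp downstream in replicate 1, from 4395 to 6096 bp in replicate 2 and from 4291 to 6023 bp in replicate 3.

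The Zap70 region, chr1:36766089-36768532, was wide but weak. The fold enrichment of 3.73, 3.77 and 3.92 exceeded that of 3.99%, 4.25% and 6.69% of the peaks that covered a TSS in the same library, while the widths of 2319, 1702 and 1733 bp were near their medians of 2034, 1838 and 1846 bp. The region covered the start of a short coding Zap70 transcript at 36766934, which the comprehensive annotation alone contains, in 3 of 3 libraries. With the coding transcripts of that annotation, a rule added after the peaks were seen, 2 of 10 T cell genes, Gata3 and Zap70, had a covered TSS in 3 of 3 libraries, against 39.9% of all genes.

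The flanks of Zap70 held 2 regions that were seen in 3 of 3 libraries and had Zap70 as the nearest coding TSS. The upstream one, chr1:36744448-36744959, began 16931, 16839 and 16931 bp from the TSS with a fold enrichment of 10.80, 6.80 and 4.94. It overlapped the gene 4933424G06Rik and covered the start of Gm33533, a lincRNA. An H3K4me1 peak of replicate 1 lay in it, at a fold enrichment of 7.26 with a summit of 10 fragments against 0.51 expected. The downstream region, chr1:36784896-36786531, lay past the 3′ end of Zap70 in intergenic sequence, with a fold enrichment of 6.74, 3.76 and 3.31.

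A second H3K4me1 peak near Zap70, 13582 bp upstream, was seen in replicate 1 alone with 5 fragments at its summit. These peaks were the only H3K4me1 peaks near any of the 10 genes for which the nearest coding TSS was a T cell gene's own, and both came from the library with the most H3K4me1 peaks.

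**Figure D2:**
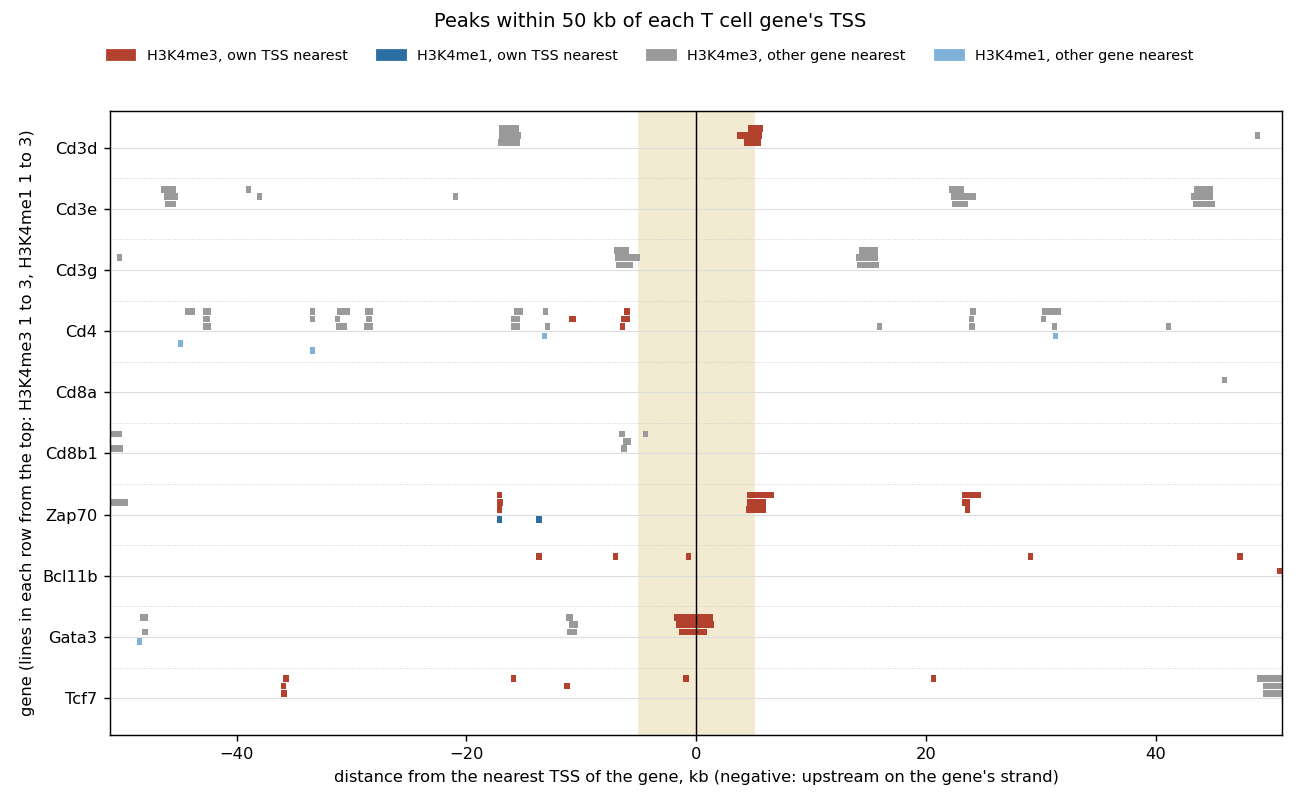
Position of each peak relative to the TSS of each T cell gene (x axis in kb, negative upstream on the strand of the gene; the shaded band is the 5 kb promoter zone), with 6 lines per gene for H3K4me3 replicates 1 to 3 and H3K4me1 replicates 1 to 3 from the top. Dark red and dark blue mark peaks nearest to the gene's own TSS, grey and light blue those nearest to another gene's; narrow peaks are drawn wider than they are so that they can be seen, and peaks past 50 kb are left out of view. Only the Gata3 peaks span the line at 0.

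Among the factor genes, Gata3 stood alone with H3K4me3 over its start. Gata3 (ENSMUSG00000015619, chr2:9857078-9890034, minus strand), which directs early T cell and type 2 helper T cell development, had 3329, 3289 and 2411 bp of promoter window under H3K4me3 and 0 bp under H3K4me1 in each library. The lowest Gata3 value, in replicate 3, was above the highest Cd3d value of 1481 bp. The mean was 3010 ± 519 bp (SD, n = 3), 30.1% of the window and above 86.2% of all genes.

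The Gata3 peak covered the TSS at 9878600 in each library, as chr2:9877173-9880501, chr2:9877097-9880385 and chr2:9877710-9880120. Its fold enrichment of 7.21, 7.75 and 6.09 was above that of 63.0%, 84.4% and 53.0% of the TSS-covering peaks of its library, and it was wider than 84.1%, 87.8% and 72.3% of them. At this gene H3K4me3 was thus of the strength and width seen at other marked starts. The antisense gene Gm13256 starts inside the same region, and Mint-ChIP peaks carry no strand.

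Gata3 was also the only T cell gene with H3K4me3 in the gene body in 3 of 3 libraries, 1 of 10 against 19.3% of all genes. The region, chr2:9888917-9889949, lay 10768, 10317 and 10353 bp upstream of the TSS at 9878600. It was within the gene only because a longer coding Gata3 transcript of the comprehensive annotation starts at 9890034, just beyond the end of the region. With that start as a TSS, a choice made after the peaks were seen, the region lay in the Gata3 promoter zone. The mean promoter length of Gata3 was then 3760 bp. The fold enrichment of the region was 4.14 to 4.79. The nearest coding TSS of the basic annotation was that of 9230102O04Rik, and the region covered the start of a noncoding transcript of that gene at 9889540. In at least 1 library, gene body H3K4me3 was found at 4 of 10 T cell genes against 33.2% of all genes, the others being Cd4, Bcl11b and Tcf7.

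Bcl11b (ENSMUSG00000048251, chr12:107910403-108003602, minus strand), needed for T cell commitment, had 337, 0 and 0 bp of its 10189 bp promoter window under H3K4me3. The replicate 1 peak began 533 bp upstream of the TSS, and its fold enrichment of 3.25 exceeded that of 1.20% of the TSS-covering peaks of that library. The long gene body held 2 peaks in replicate 1, 0 in replicate 2 and 2 in replicate 3. No place was shared, and their widths were 175 to 208 bp at a fold enrichment of 3.03 to 3.94. Another 2 peaks in the flank came from replicate 1 alone.

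Tcf7 (ENSMUSG00000000782, chr11:52252371-52283014, minus strand), which encodes TCF-1, had 258, 0 and 0 bp of its 10444 bp promoter window under H3K4me3. The replicate 1 peak lay 768 bp upstream with a fold enrichment of 3.05, above 0.430% of the TSS-covering peaks of that library. A narrow intronic peak in the gene body was likewise seen in replicate 1 alone. In the flank, the intergenic region chr11:52318451-52319151 was seen in 3 of 3 libraries, 35437, 35759 and 35739 bp upstream of Tcf7, with a fold enrichment of 5.98, 4.67 and 3.47. The promoter of the neighbour Skp1a was the other flank region found in 3 of 3.

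Ordered by mean H3K4me3 length at the promoter, Gata3 came first, then Cd3d and Zap70, then Bcl11b at 112 bp, Tcf7 at 86.0 bp, Cd8b1 at 65.3 bp and Cd3g at 42.0 bp, with Cd3e, Cd4 and Cd8a at 0. The values of Cd3d and Zap70 overlapped, as did those of the genes marked in 1 library. H3K4me1 length was 0 at all 10 genes in each library. The count of genes with H3K4me3 length above it in every pair of libraries therefore repeats the promoter count. It was 3 of 10 T cell genes, Gata3, Cd3d and Zap70, against 55.8% of all genes. At each of these the two-sided exact permutation test over the 20 assignments of the libraries gave p = 0.1, the smallest that 3 against 3 libraries allow, and 0.179 after Benjamini-Hochberg adjustment over all genes, so the design cannot reach 0.05. The exact permutation p was 1 at the other genes.

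In the flanks, H3K4me3 in 3 of 3 libraries was found at 7 of 10 T cell genes, all but Cd8a, Bcl11b and Gata3, against 60.3% of all genes, and in at least 1 library at 10 of 10 against 76.0%. H3K4me1 in the flank was found in 3 of 3 libraries at 1 of 10, Cd4, against 20.4%, and in at least 1 library at 3 of 10, Cd4, Gata3 and Zap70, against 54.4%. In the gene body H3K4me1 was seen at 0 of 10 in 3 of 3 libraries against 6.64%, and at 0 of 10 in at least 1 library against 21.3%. The H3K4me1 peak in the flank of Gata3, in replicate 1 alone, lay in an intron of Taf3 with 7 fragments at its summit.

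Merged over the libraries, the H3K4me3 peaks around the 10 genes formed 43 regions, of which 21 were seen in 1 library, 4 in 2 and 18 in 3. Over the genome 48.2% of 64451 merged H3K4me3 regions were seen in 1 library and 41.6% in 3. The median width was 196 bp for regions in 1 library and 1119 bp for those in 3. A T cell gene had the nearest coding TSS at 19 regions, 7 of them seen in 3 of 3 libraries, and another gene at 24, of which 7 covered that gene's TSS. The H3K4me1 peaks formed 7 regions, each seen in 1 library, as were 78.6% of the H3K4me1 regions of the genome, and 5 of the 7 overlapped an H3K4me3 region.

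Other T cell genes were set beside these 10. Of 17 further genes of T cell receptor signalling, 6 (35.3%) had H3K4me3 at the promoter in 3 of 3 libraries against 56.2% of all genes, and 4 (23.5%) had a covered TSS against 38.4%. The largest mean shares of the window were 67.1% at Cd2 and 48.3% at Lck. Cd2, an adhesion receptor gene, had 6888, 6473 and 6769 bp, and Lck, the kinase that phosphorylates CD3 chains, had 10671, 8579 and 9778 bp. Both also had H3K4me1 at the promoter in 3 of 3 libraries, Cd2 with 1114, 257 and 215 bp and Lck with 857, 434 and 406 bp. The adaptor gene Lcp2 followed with 3133, 2737 and 1417 bp, the inhibitory receptor gene Ctla4 with 1661, 1507 and 1196 bp and Ubash3a with 1947, 247 and 791 bp, and the list median was 0% of the window. Windows are longer where the TSSs of a gene lie apart, as at Lck, where 10671 bp exceed the 10001 bp around 1 TSS. Lengths in bp are therefore not comparable between genes with unlike windows, and a longer window can meet the promoter rule more easily.

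Of 10 further T cell factor genes, 8 had H3K4me3 at the promoter in 3 of 3 libraries against 56.2% of all genes, and 4 had a covered TSS, a share near the 38.4% of all genes. Zbtb7b, the CD4 lineage factor ThPOK, had 8988, 8779 and 6854 bp, Tox 5574, 5301 and 3880 bp and Tbx21, which encodes T-bet, 4504, 3013 and 2806 bp. Lef1, a relative of Tcf7, had 3666, 3531 and 2149 bp and Runx3 5722, 3717 and 4879 bp. As shares of their own windows, the means were 50.7% at Zbtb7b, 49.2% at Tox, 34.4% at Tbx21, 25.3% at Lef1 and 23.9% at Runx3. Ikzf2, which did not meet the rule, had 539, 0 and 625 bp. The median of this list was 15.3% of the window, against 0.738% for the 10 T cell genes and 9.05% for all protein-coding genes.

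For the B cell side, all 10 counterpart genes, among them the B cell receptor chain genes Cd79a and Cd79b, the coreceptor gene Cd22, the kinase gene Blk, the adaptor gene Blnk and the factor genes Pax5, Ebf1, Bcl6 and Pou2af1, had a TSS covered by H3K4me3 in 3 of 3 libraries. Their windows were covered to 48.6% to 100%, median 80.7%, with Pax5 at 10080 bp in each library, so the lowest of them was above Gata3 at 30.1%. H3K4me1 was at the promoter in 3 of 3 libraries at 8 of these 10. Of 10 genes of other tissues, 1, the lung gene Sftpc, met the promoter rule for H3K4me3 in 3 of 3 libraries, 0 had a covered TSS, and the median was 0%.

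**Figure D3:**
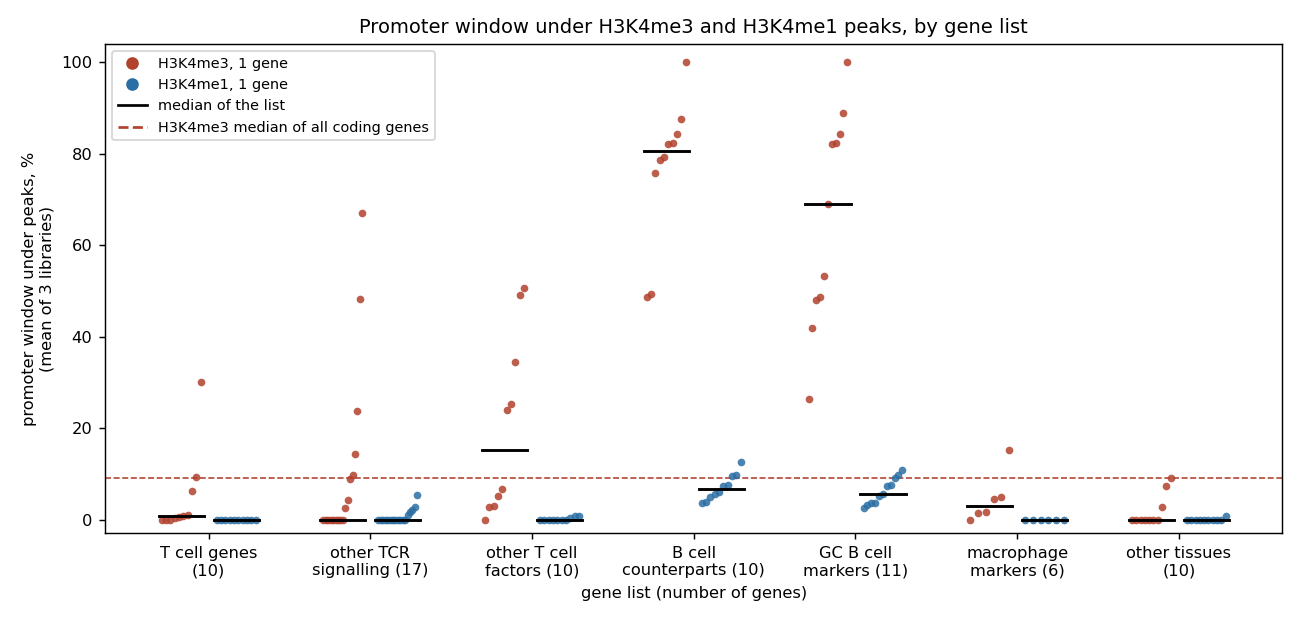
Share of the promoter window under H3K4me3 peaks (red) and H3K4me1 peaks (blue), in percent as the mean of 3 libraries, with 1 point per gene, the lists on the x axis and a black bar at each list's median; the dashed line is the H3K4me3 median of all coding genes, 9.05%. The T cell genes lie at or below 30.1% for H3K4me3 and at 0 for H3K4me1, while the B cell counterparts start at 48.6%.

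Promoter windows of 300 bases, 250 before and 50 after the start, were matched for 8 of the 10 T cell genes, without Cd4 and Cd8b1. The CpG observed over expected ratio was 0.08 at Cd3d, 0.18 at Cd3g, 0.20 at Cd8a, 0.33 at Cd3e and 0.34 at Zap70. It was higher at the factor genes, with 0.65 at Bcl11b, 0.66 at Gata3 and 1.03 at Tcf7. Among the genes shown as sequence, the receptor and kinase genes thus had fewer CpG than Gata3. The ratio of Gata3 was above that of 55.1% of all matched promoters and that of Bcl11b above 54.6%.

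Split at a ratio of 0.6, an H3K4me3 peak covered the TSS in 3 of 3 libraries at 62.6% of 8211 promoters with the higher ratio and at 19.3% of 8319 with the lower one. Of the T cell genes, 1 of 3 with the higher ratio met this, Gata3, and 0 of 5 with the lower. Bcl11b and Tcf7, the others with the higher ratio, had no covered TSS in any library.

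**Figure D4:**
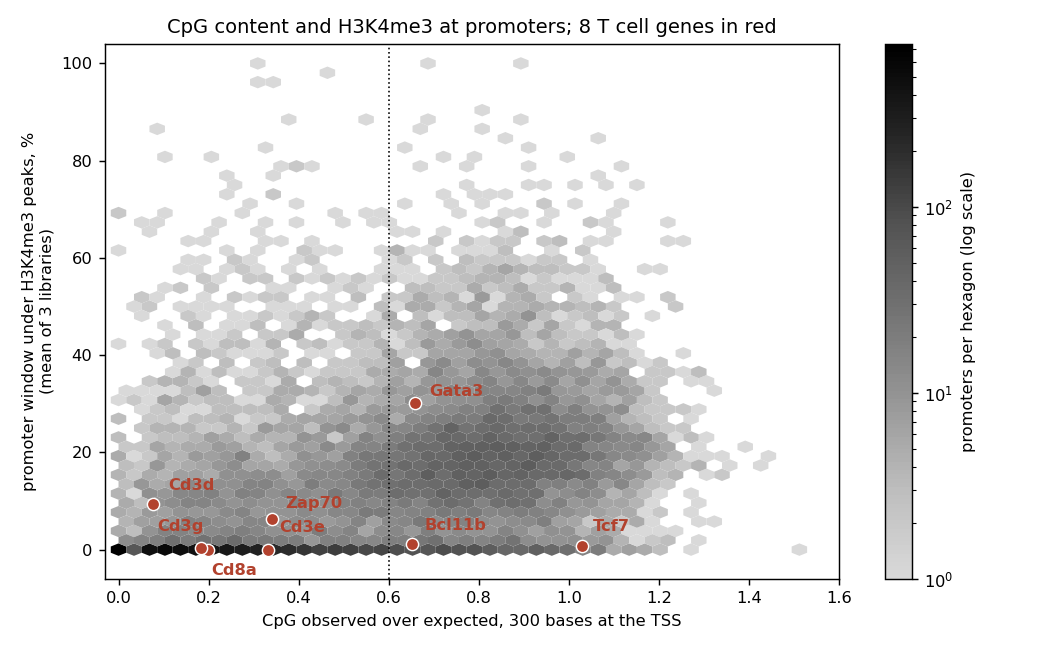
CpG observed over expected in the 300 bases at the TSS (x axis) against the share of the promoter window under H3K4me3 in percent, mean of 3 libraries (y axis), for 16530 promoters as hexagons shaded by their number on a log scale, with 8 T cell genes as red points and a dotted line at 0.6; 1 promoter with a ratio above 1.6 is outside the axis. Gata3 lies at 30.1% while Bcl11b and Tcf7, to the same side of the line, lie near 0.

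Short motifs were searched on both strands of these 300 base windows. CAGGTG, an E protein motif held by 19.5% of 16530 promoters, was found at Cd3d, Cd3e, Cd3g and Zap70. CTTTGA, a TCF/LEF motif held by 14.8%, was found at Cd3d, Zap70 and Bcl11b. Of the motifs for GATA factors, AGATAA, held by 9.68%, was found at Cd3g. The variant TGATAA, which differs in the first letter and is held by 7.47%, was found at none. TGTGGT, a RUNX motif held by 14.9%, and CCGGAAG, an ETS motif held by 12.4%, were found at none of the 8, and Gata3, Tcf7 and Cd8a held none of the 6 motifs.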

How the data were processed

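Peak lists of 6 Mint-ChIP libraries (WT GC B cells, 3 each for H3K4me3 and H3K4me1) were used as deposited, 1 list per library. The submitters' processing notes name mm10, BWA, Picard, HOMER and Genrich. The caller of these lists, its settings and any control were not given in the sources used here. The authors deposited for each peak a fold enrichment (a linear ratio of fragment pileup to background), a −log10 p-value, a −log10 q-value and a score, which was not used. The extract protocol of the labels names an H3K27ac antibody, while H3K4me1 and H3K4me3, the marks used here, stand in the titles, the antibody labels and the methods.

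Genes were protein-coding genes of GENCODE M21 basic (GRCm38), with 41451 TSSs, and 0 of 181475 peaks lay past a chromosome end. A peak was assigned to a zone by an overlap of 1 bp. The covered length of the promoter window was compared between marks by a two-sided exact permutation test, adjusted by Benjamini-Hochberg over all genes. Summit fragments of H3K4me1 peaks were solved from fold and p-value, and came out whole for 100% of peaks within 0.01 of log10 p. Python 3.11.15, numpy 2.4.6 and scipy 1.17.1 were used, and zone assignment was tested on simulated peaks. Promoter sequences came from RefSeq (GRCm38.p6). The genes and lists were chosen with earlier results of these data known. All 10 genes are named, with genes nearest to their peaks and, of the other lists, the genes with a promoter H3K4me3 peak in 3 of 3 libraries if 5 or fewer, otherwise the 5 with the largest mean share of the window covered, and the genes without such a peak if 5 or fewer. Some genes of the comparison lists are counted but not reported here by name. Alternatives covered the TSS distance, the transcripts used, peak strength, overlap, nearest gene, flank, the number of libraries required and leaving out each library.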

Additional observations from a re-analysis of the deposited data

How the results depend on the processing

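Of 102 alternatives for the counts of T cell genes, 70 stayed within 1.5 times the value of the report and 32 moved. Those that stayed include H3K4me1 counts of 0, which stricter rules could not raise. For H3K4me3 at the promoter the share of all genes was 38.4% with a covered TSS and 65.5% with 1 of 3 libraries. For most other settings that share was not computed, so whether the T cell genes moved relative to all genes was not tested. H3K4me3 at the promoter in 3 of 3 libraries, 3 genes, became 1, Gata3, when peaks needed a −log10 q-value of at least 5, when the 10000 best peaks of each library were used, at a TSS distance of 1 kb or 2.5 kb, when a peak had to cover a TSS and when at least 50% of the peak had to lie in the zone, and 7 with 1 of 3 libraries required. The count of genes with more H3K4me3 than H3K4me1 promoter length in every pair, 3, repeats that count and became 1 under the same 6 settings. H3K4me3 in the gene body, 1 gene, became 0 for the stricter q-value, the 10000 best peaks, the nearest TSS being the gene's own and the coding transcripts of the comprehensive annotation, a choice made after seeing the data. It became 4 with 1 of 3 libraries, 2 with 2 of 3 and with the 50% overlap, and 3 at 1 kb, at 2.5 kb and when a peak had to cover a TSS, since the Cd3d and Zap70 peaks then counted as gene body. Leaving out 1 library gave 1 to 2, with Bcl11b added without H3K4me3 replicate 2, by peaks at different places. H3K4me3 in the flank, 7 genes, became 4 for the stricter q-value and the 10000 best peaks and 3, Cd4, Tcf7 and Zap70, with the nearest TSS rule. H3K4me1 in the flank, 1 gene, became 3 with 1 of 3 libraries and 0 for the stricter q-value, the 10000 best peaks, a flank of 5 to 20 kb and the nearest TSS rule. H3K4me1 at the promoter and in the gene body stayed at 0 under all alternatives run. No direction reversed, but H3K4me1 promoter length was 0 at every T cell gene by the main rule, which left little room for a reversal. The promoter length of single genes fell to 0 in 32 of 160 alternatives. It otherwise moved by over 1.5 times at Cd3d, Zap70 and Gata3. Cd3d (935 bp) moved to 442 bp for the stricter q-value and the 10000 best peaks and to 1635 bp with the comprehensive coding transcripts. Zap70 (634 bp) moved to 1918 bp with those transcripts, and Gata3 (3010 bp) to 1964 bp at 1 kb.

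It is not stated whether libraries with the same replicate number were paired between the marks. The deviations of same-numbered libraries from their group means correlated at 0.10, 0.04 and 0.01 over 7679 genes. H3K4me3 replicate 2 correlated best with H3K4me1 replicate 3, at 0.06. Values this low do not decide whether the libraries were paired, since pairing need not show in these deviations. With the replicate block the count stayed at 3 and the exact sign-flip p at Gata3, Cd3d and Zap70 was 0.25, the smallest that 3 pairs allow. Peaks without read totals limit what an absent peak can show, most of all for H3K4me1.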
